A study of Arabidopsis thaliana with 6 samples.

Results

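The UGT genes of Arabidopsis thaliana were compared between wild-type seedlings (WT) and seedlings that overexpress the clock gene TOC1 (TOC1-ox). The genes were taken from the array's platform annotation. Every gene was included whose symbol begins with UGT and a digit and which has a probe set that lists no other gene, apart from the anthocyanin enzymes UGT75C1 and UGT79B1. This gave 47 genes of 13356 with a probe set of their own, each with a single probe set. The TAIR10.1 gene table gives a UGT symbol to 58 genes. Both groups were of ecotype Col0, were 12 days old and had grown on MS3 medium with 12 h of light and 12 h of darkness a day. They were harvested at zeitgeber time 15, in the dark part of the cycle, with 3 arrays per group that the series describes as biological replicates. TOC1-ox carries raised TOC1 by its name; the sources used here do not give the promoter, the line or the number of plants per sample.

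UGT enzymes move a sugar from a UDP-sugar onto a small molecule and so make it more soluble, inactive, storable or ready for transport. In plants their acceptors include flavonols, phenylpropanoids, glucosinolate precursors, hormones and foreign compounds, and many of the genes lie side by side on the chromosomes as products of tandem duplication. The number after UGT marks a family by sequence similarity, the letter a subfamily, and neither fixes the acceptor. TOC1 is an evening-expressed transcriptional repressor of the plant circadian clock.

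The deposited values are log2 expression values, 1 per probe set and array, and 22746 probe sets were tested. Array medians lay between 6.18 and 6.27. A log2 value under 4, where 36.1% to 37.0% of the values of an array lay, is called dim here. So near the bottom of the scale, the size of a difference is taken as not well defined. The brightness of a probe set depends on its probes, so log2 values are compared between groups for the same gene and not between genes. TOC1-ox replicates 1 and 2 correlated at 0.996 across probe sets. For TOC1-ox replicate 3 the correlation was 0.977 and 0.978 with those arrays and 0.981 with WT replicate 3. The bacterial transcripts added to control the labelling had medians of 7.59 and 7.01 on the arrays numbered 3 of WT and TOC1-ox, against 2.81 to 4.84 on the other 4 arrays. Calls that change without TOC1-ox replicate 3 are therefore given with and without it. That array was singled out by values of these same data. Without it the calls rose from 1.78% to 13.0% of all probe sets. A call gained only without it is thus no separate support for a difference. WT replicate 3 shares the high level of the added transcripts, and leaving it out is given mainly by counts. TOC1 itself was not analysed here, because no probe set carries its name in the annotation. The seedling labels could be checked at few markers. The leaf gene RCA, for the activase of Rubisco, had log2 values of 13.14 to 14.67 over the 6 arrays, and the root-hair expansins EXPA7 and EXPA18 and the root glucosidase PYK10 were also above 4 on all arrays.

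Of the 47 UGT genes, 5 rose in TOC1-ox and 1 fell (limma, Benjamini-Hochberg adjusted p under 0.05). These are 10.6% and 2.13% of the genes, beside 1.08% higher and 0.703% lower, and 1.78% in either direction, among all probe sets tested. The 5 that rose were UGT73C1, UGT78D2, UGT84A3, UGT74D1 and UGT88A1, and the gene that fell was UGT71C4. They belong to 6 different family numbers. Each call was lost in some of the other settings of the closing section. It was lost in 4 of 16 for UGT73C1, 6 of 17 for UGT74D1 and 7 of 17 for UGT84A3. For UGT88A1 it was lost in 7 of 17, for UGT71C4 in 8 of 17 and for UGT78D2 in 10 of 17. Of the 47 genes, 4 were called higher with a rise of at least 2-fold, beside 0.831% of all probe sets tested. Among calls higher alone, the rise was at least 2-fold in 4 of the 5 UGT genes and in 189 of 245 probe sets. The median log2 difference over the 47 genes was 0.16, beside -0.017 over all probe sets, and 32 genes had a positive difference and 15 a negative one.

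**Figure D1:**
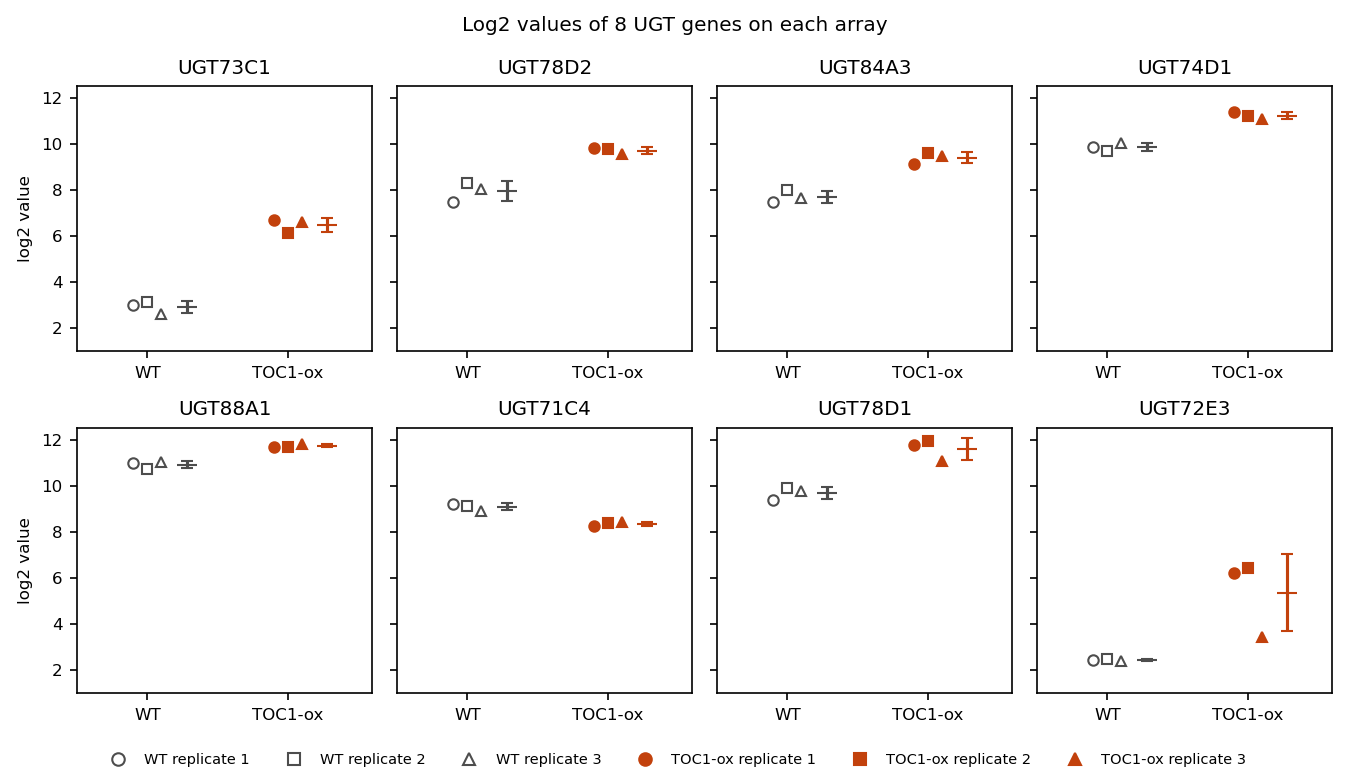
Log2 value of 8 UGT genes on each of the 6 arrays; open grey symbols are WT, filled orange symbols TOC1-ox, the symbol shape gives the replicate number, and the bar beside each group is the mean with its SD (n = 3). The first 6 genes passed the test; in UGT78D1 and UGT72E3 TOC1-ox replicate 3 lay below replicates 1 and 2, at 11.05 and 3.44.

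Of 6 listed glycosyltransferases of flavonols, 3 were among the 47 genes. Of these 3, 1 rose, beside 1.08% of all probe sets. In 2 of them TOC1-ox lay above WT without overlap, beside 9.27% of all probe sets. UGT78D2 encodes the flavonoid 3-O-glucosyltransferase, which acts on flavonols and on anthocyanidins. Its log2 values were 7.48, 8.30 and 8.05 in WT and 9.80, 9.77 and 9.55 in TOC1-ox. All TOC1-ox arrays lay above all WT arrays, and the gene rose 3.39-fold, by 1.76 ± 0.23 on the log2 scale (standard error, n = 3 each; limma, adjusted p = 0.0432). The call was lost in 10 of 17 other settings (adjusted p of 0.00773 to 0.17). UGT78D1, the flavonol 3-O-rhamnosyltransferase, had values of 9.40, 9.89 and 9.79 in WT and 11.77, 11.93 and 11.05 in TOC1-ox. These groups did not overlap either, but the difference of 1.89 ± 0.28 missed the threshold with all arrays (adjusted p = 0.0534) and passed it without TOC1-ox replicate 3, at 2.15 (adjusted p = 0.00773; 0.00442 to 0.194 over all settings tried). UGT78D3, the flavonol arabinosyltransferase, was dim on every array, between 2.92 and 3.40, and had an adjusted p of 0.786. The anthocyanin enzyme UGT79B1, which is listed as UF3GT and was not among the 47, differed by 4.34 with a WT mean of 6.11 and a TOC1-ox mean of 10.45 (adjusted p = 0.0329). UGT75C1 has no probe set under that symbol in the annotation and was not analysed here.

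Of 8 listed enzymes that glucosylate sinapate, other hydroxycinnamates and the monolignols, the building blocks of lignin, 6 were among the 47 genes. Of these 6, 1 rose, beside 1.08% of all probe sets. UGT84A3, which makes glucose esters of hydroxycinnamates, had log2 values of 7.46, 7.99 and 7.65 in WT and 9.12, 9.58 and 9.49 in TOC1-ox. It rose 3.24-fold, by 1.70 ± 0.19 (standard error; limma, adjusted p = 0.0328; 0.00897 to 0.132 over all settings), and TOC1-ox replicate 3 lay between the other TOC1-ox arrays. Its relative UGT84A4, of the same activity, was at 4.86, 4.73 and 4.78 in WT and at 5.37, 5.46 and 4.37 in TOC1-ox. TOC1-ox replicates 1 and 2 thus lay above WT and replicate 3 below it. The difference of 0.28 (adjusted p = 0.797) became 0.63 without replicate 3 (adjusted p = 0.0129; 0.0129 to 1 over all settings). UGT84A1, also a hydroxycinnamate glucosyltransferase, was dim in both groups, at 2.24 to 2.39 on 5 arrays and 3.74 in TOC1-ox replicate 3.

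The 3 members of the UGT72E subfamily, which glucosylate monolignols and their aldehydes, did not pass the test with all arrays. UGT72E3, an enzyme for sinapyl alcohol, was dim in WT, at 2.43, 2.49 and 2.39, and had 6.22, 6.42 and 3.44 in TOC1-ox. The groups did not overlap, but replicate 3 stood much closer to WT than replicates 1 and 2 did. The difference was 2.92 ± 0.86 (adjusted p = 0.193), and without replicate 3 it was 3.88 (adjusted p = 0.00143; 0.00143 to 0.467 over all settings). Because the WT values lie near the bottom of the scale, its size is not well defined. UGT72E2, which acts on coniferyl and sinapyl alcohol, had 9.69, 9.51 and 9.83 in WT and 10.85, 11.42 and 10.08 in TOC1-ox, again with replicate 3 the lowest of its group. Its difference of 1.11 (adjusted p = 0.229) was 1.46 without that array (adjusted p = 0.0233; 0.0157 to 0.509 over all settings). UGT72E1, the coniferyl aldehyde enzyme, differed by 0.47 with overlapping groups (adjusted p = 0.628). The fourth UGT72 gene measured, UGT72B3, differed by 0.37 with overlap as well (adjusted p = 0.725). UGT72B1, a monolignol and xenobiotic glucosyltransferase that the annotation lists as GT72B1 and that was not among the 47, also had replicate 3 as the lowest TOC1-ox array. Its values were 9.73, 9.74 and 9.73 in WT and 11.31, 11.32 and 10.02 in TOC1-ox (adjusted p = 0.244, and 0.00169 without replicate 3; 0.00169 to 0.552 over all settings).

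**Figure D2:**
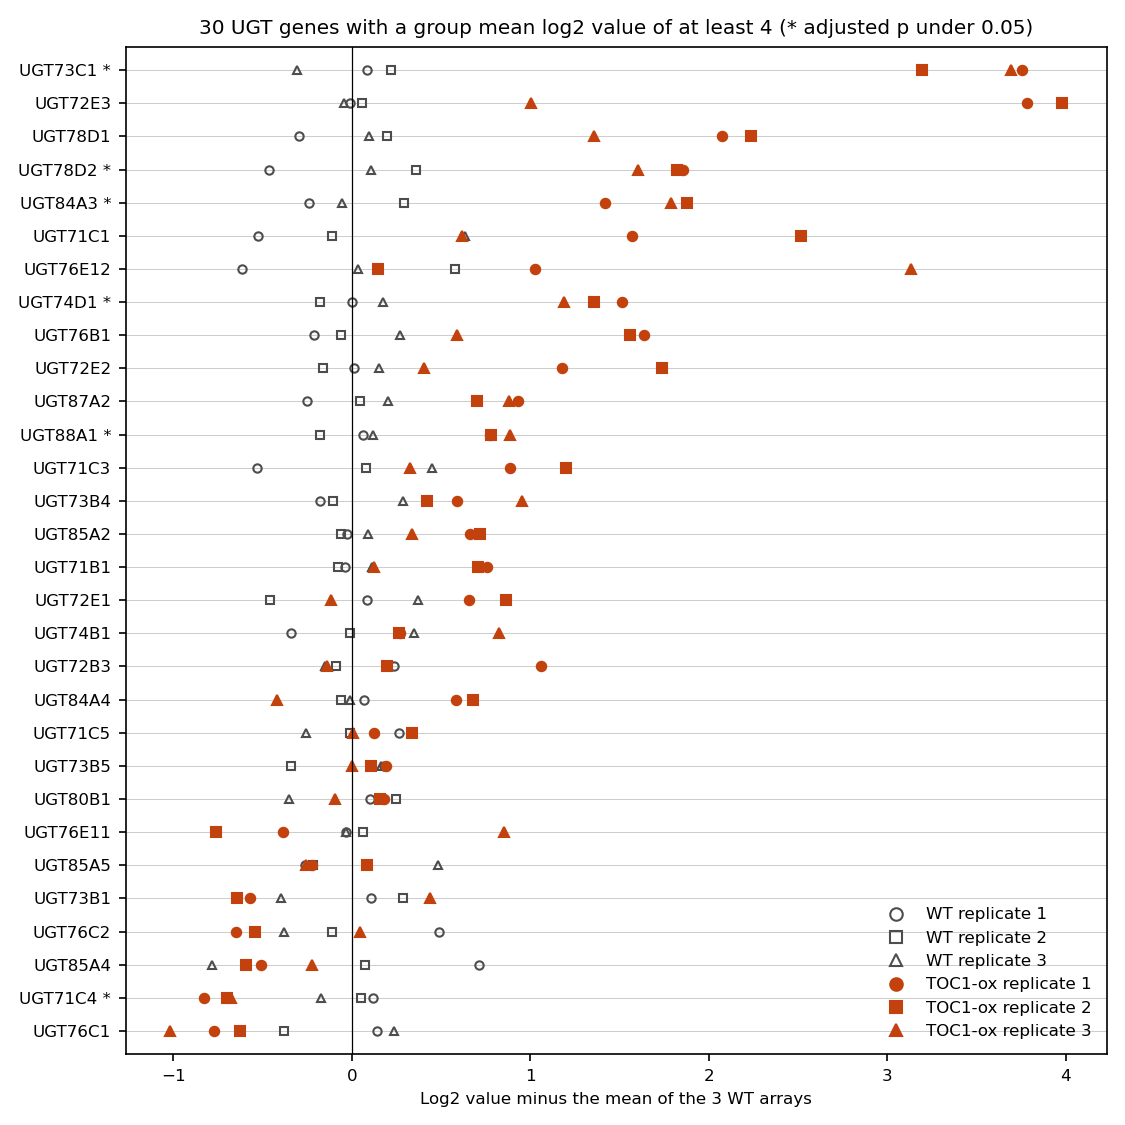
Log2 value of each array minus the mean of the 3 WT arrays, for the 30 UGT genes with a mean of at least 4 in a group, in order of the difference between groups; colours and shapes as for the plot of single genes, and * marks an adjusted p under 0.05. TOC1-ox replicate 3 lay within the range of the WT arrays in 10 of the 30 genes (33.3%, beside 39.0% of all probe sets at that level).

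Among the genes for cytokinin glucosylation, 1 of 3 measured genes rose, beside 1.08% of all probe sets. The other 2 genes were lower without passing the test. UGT73C1, which forms O-glucosides of zeatin-type cytokinins and also acts on foreign compounds, was dim in WT. Its log2 values were 3.02, 3.15 and 2.62 in WT and 6.68, 6.12 and 6.62 in TOC1-ox, so that replicate 3 lay with the other TOC1-ox arrays. It rose by 3.55 ± 0.21 (standard error; limma, adjusted p = 0.0104; 0.00149 to 0.0776 over all settings). With WT values near the bottom of the scale, the size of the rise is not well defined. UGT76C1 and UGT76C2 are the cytokinin N-glucosyltransferases, whose products are inactive. UGT76C1 had 7.96, 7.44 and 8.06 in WT and 7.05, 7.20 and 6.81 in TOC1-ox, without overlap. Its difference of -0.80 ± 0.20 did not pass (adjusted p = 0.146; 0.078 to 0.365 over all settings). UGT76C2 had 8.06, 7.47 and 7.19 in WT and 6.92, 7.03 and 7.62 in TOC1-ox, where replicate 3 lay within the WT values (difference -0.38, adjusted p = 0.659).

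Of the auxin glucosyltransferases, 1 of 3 measured genes rose, beside 1.08% of all probe sets. UGT74D1, which glucosylates indole-3-acetic acid and its oxidised form, had values of 9.87, 9.69 and 10.04 in WT and 11.38, 11.22 and 11.05 in TOC1-ox. The 3 TOC1-ox arrays lay close together and above all WT arrays, and the gene rose 2.56-fold, by 1.35 ± 0.13 (standard error; limma, adjusted p = 0.0243; 0.00216 to 0.117 over all settings). UGT84B1, an indole-3-acetic acid glucosyltransferase, and its close relative UGT84B2 were dim in both groups, at 1.98 to 2.15 on all arrays.

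None of the 4 measured genes for salicylic acid and other defence signals passed, nor did any of the 3 for abscisic acid. At an unadjusted p under 0.05 there were 1 and 0 (limma, beside 16.4% of all probe sets). UGT76B1, which glucosylates salicylic acid, isoleucic acid and N-hydroxypipecolic acid, had 6.85, 6.995 and 7.33 in WT and 8.69, 8.61 and 7.65 in TOC1-ox. The groups did not overlap and replicate 3 lay nearest to WT. The difference was 1.26 ± 0.33 (adjusted p = 0.155), and 1.598 without replicate 3 (adjusted p = 0.0119; 0.00564 to 0.39 over all settings). UGT71C3, a methyl salicylate glucosyltransferase, differed by 0.80 with overlap (adjusted p = 0.347). The salicylic acid enzyme UGT74F1 and the dihydroxybenzoate enzyme UGT76D1 were dim, with differences of 0.24 and 0.12. Of the abscisic acid glucosyltransferases, UGT71C5 averaged 8.49 ± 0.26 over the WT arrays and 8.65 ± 0.17 over the TOC1-ox arrays (SD, n = 3), and the 95% interval of its difference ran from -0.26 to 0.57. UGT71B6 and UGT71B8 were dim on every array.

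The single glucosinolate and sterol genes among the 47 did not pass. UGT74B1, which glucosylates thiohydroximates in glucosinolate synthesis, had 9.23, 9.56 and 9.92 in WT and 9.84, 9.84 and 10.40 in TOC1-ox, with overlap (difference 0.45, 95% interval -0.18 to 1.08; adjusted p = 0.464). UGT80B1, a sterol glucosyltransferase, differed by 0.081 (95% interval -0.39 to 0.55). None of the 6 measured genes of the list for stress and redox responses passed either. At an unadjusted p under 0.05 there were 2 (limma, beside 16.4% of all probe sets). UGT87A2, known for an effect on flowering time, had 8.26, 8.56 and 8.71 in WT and 9.44, 9.21 and 9.39 in TOC1-ox. Its groups did not overlap, and its difference of 0.84 ± 0.14 had an adjusted p of 0.0643 (0.0109 to 0.227 over all settings, of which 3 gave a call). UGT73B4, which takes part in redox responses to pathogens, differed by 0.66 without overlap (adjusted p = 0.193), and its neighbour UGT73B5 by 0.10 with overlap (adjusted p = 0.882).

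In 2 genes of that list TOC1-ox replicate 3 lay on the other side of WT from replicates 1 and 2. UGT76E11 had 8.27, 8.37 and 8.27 in WT and 7.92, 7.54 and 9.16 in TOC1-ox. UGT73B1 had 8.56, 8.74 and 8.05 in WT and 7.88, 7.81 and 8.89 in TOC1-ox. Their differences, -0.099 and -0.26, therefore average arrays of opposite direction (adjusted p = 0.966 and 0.858). Without replicate 3 they were -0.57 and -0.60 (adjusted p = 0.0663 and 0.199). In UGT76E12, which had 2.45, 3.64 and 3.10 in WT, the highest TOC1-ox array was replicate 3, at 6.20, against 4.09 and 3.21 in replicates 1 and 2. Its difference was 1.44 (adjusted p = 0.513), and 0.59 without replicate 3 (adjusted p = 0.568).

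Genes with no list of their own included 1 that rose and 1 that fell, beside 1.08% and 0.703% of all probe sets. UGT88A1 had 10.97, 10.73 and 11.03 in WT and 11.69, 11.69 and 11.80 in TOC1-ox. It rose 1.76-fold, by 0.81 ± 0.09 (standard error; limma, adjusted p = 0.0339; 0.00314 to 0.143 over all settings). UGT71C4 had 9.20, 9.13 and 8.91 in WT and 8.25, 8.39 and 8.41 in TOC1-ox. It fell by 0.73 ± 0.10 (limma, adjusted p = 0.0421; 0.00314 to 0.162 over all settings), with no overlap and with replicate 3 beside replicate 2. UGT71C1 differed by 1.57 ± 0.58 with overlap (adjusted p = 0.28), since TOC1-ox replicate 3, at 6.60, lay just under WT replicate 3, at 6.62. UGT85A2 and UGT71B1 differed by 0.57 and 0.53 without overlap (adjusted p = 0.1 and 0.274) and passed without TOC1-ox replicate 3 (adjusted p = 0.0117 and 0.0135; 0.00434 to 0.307 and 0.00895 to 0.591 over all settings). UGT85A4 and UGT85A5 differed by -0.44 and -0.13 with overlap.

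**Figure D3:**
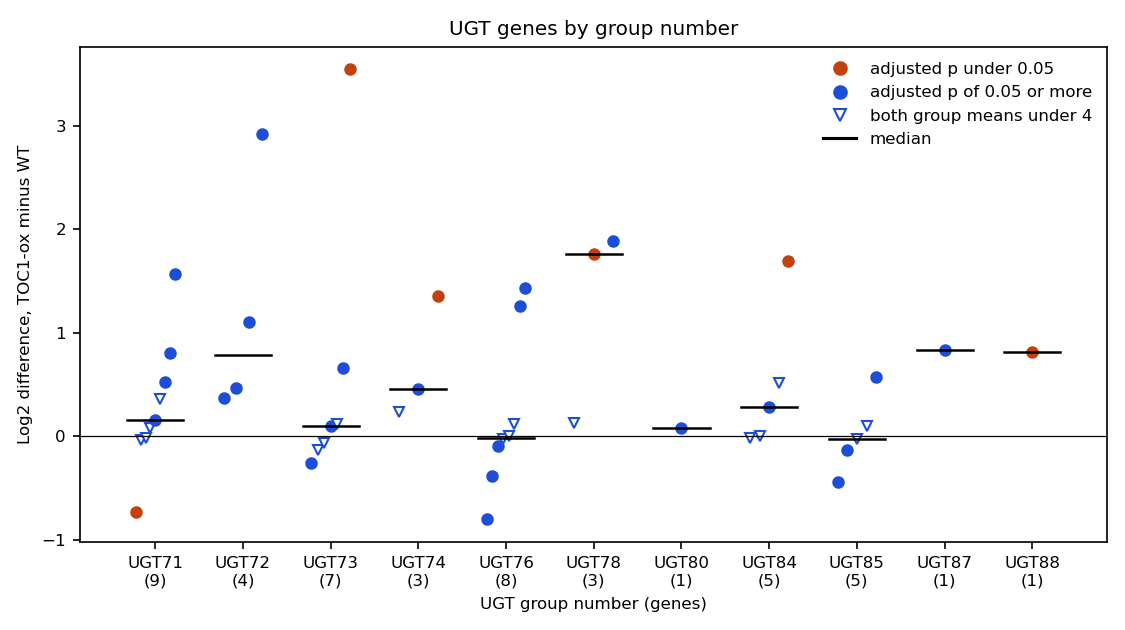
Log2 difference between TOC1-ox and WT for each of the 47 UGT genes, by the number after UGT, with the number of genes below each; orange marks an adjusted p under 0.05, open triangles mark genes with both group means under 4, and the line is the median. The medians ran from -0.027 in UGT85 to 1.76 in UGT78.

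By family number, the largest groups held genes of both signs. UGT71 had 9 genes, from -0.73 to 1.57 with a median of 0.16, and its only call was the fall of UGT71C4. UGT76 had 8 genes with a median of -0.015 and no call, and UGT73 had 7 with a median of 0.10 and the rise of UGT73C1. All 4 UGT72 genes had positive differences, with a median of 0.79, and none was dim in both groups. The 3 UGT78 genes had a median of 1.76 and the 3 UGT74 genes one of 0.45, while the 5 genes of UGT84 and the 5 of UGT85 had medians of 0.28 and -0.027. UGT80, UGT87 and UGT88 had a single gene each. With 1 to 9 genes per number these medians are descriptions of the genes measured.

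Of the 47 genes, 17 were dim in both groups, and their differences were at most 0.52 in size. The other 30 reached a mean of 4 in at least 1 group (63.8%, beside 64.9% of all probe sets). UGT73C1, UGT72E3 and UGT76E12 reached it in TOC1-ox alone, and no gene did so in WT alone. Of the 22746 probe sets, 374 reached it in TOC1-ox alone and 233 in WT alone. Since those 3 UGT genes met the level through the group in which they were high, differences were summarised over the 27 UGT genes with a WT mean of at least 4. Their median difference was 0.47, and 20 of them were positive (74.1%). Among the 14395 probe sets that met the same level in WT, the median was -0.063 and 42.9% were positive. The dim genes not described elsewhere, UGT71B5, UGT71C2, UGT73C7, UGT73D1, UGT76E1, UGT76E2, UGT85A3 and UGT85A7, had differences between -0.14 and 0.36.

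**Figure D4:**
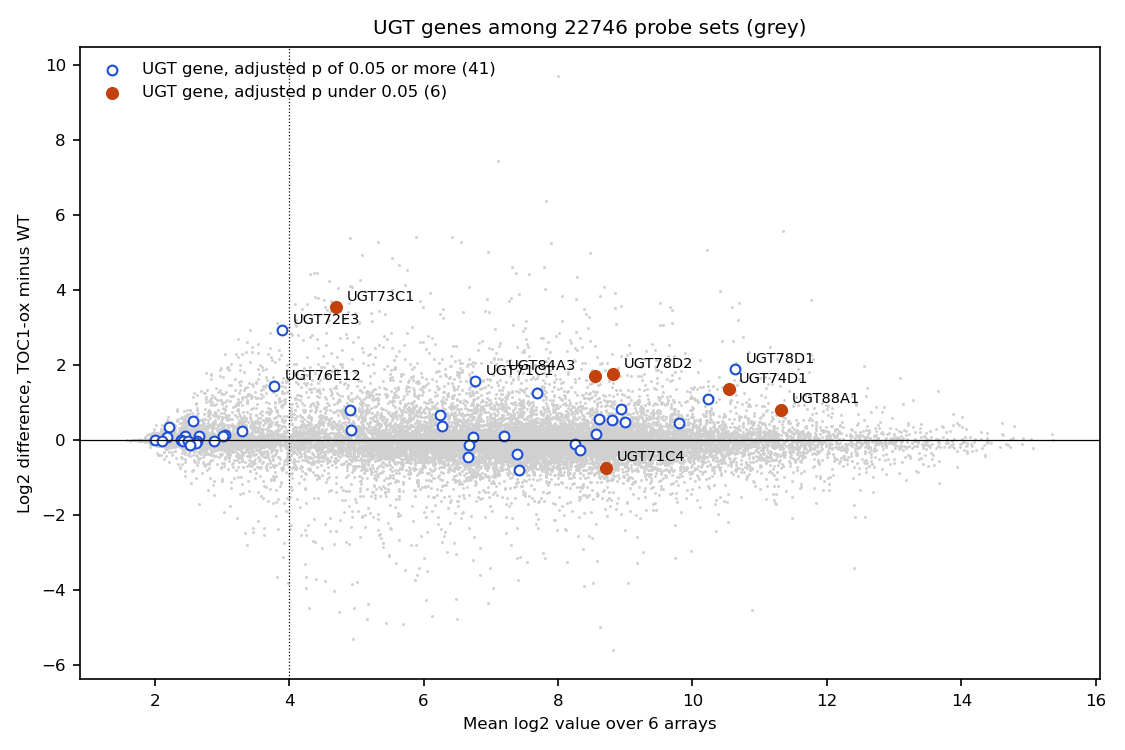
Log2 difference between TOC1-ox and WT against the mean log2 value over 6 arrays; grey points are all 22746 probe sets tested, open circles the 41 UGT genes that did not pass and filled circles the 6 that did, with the dotted line at 4. UGT73C1 and UGT72E3, both dim in WT, lie at 3.55 and 2.92 with all arrays; without TOC1-ox replicate 3 they are at 3.47 and 3.88.

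Groups that did not overlap were seen in 14 genes with TOC1-ox higher (29.8%, beside 9.27% of all probe sets) and in 2 with TOC1-ox lower (4.26%, beside 10.8%), and 20.1% of all probe sets did not overlap in either direction. Among those 14 genes, TOC1-ox replicate 3 was the lowest of its group in 8 (57.1%, beside 62.0% of all such probe sets). Without TOC1-ox replicate 3, 12 UGT genes were called higher (25.5%, beside 7.05% of all probe sets) and UGT71C4 alone lower (2.13%, beside 5.94%, with 13.0% called in either direction). The 12 were the 5 with a call on all arrays and UGT78D1, UGT72E3, UGT76B1, UGT72E2, UGT85A2, UGT71B1 and UGT84A4. On the arrays numbered 1 and 2 alone, limma called 8 genes higher (17.0%, beside 5.14%) and 2 lower (beside 4.53%, with 9.68% of all probe sets called in either direction). The 2 were UGT71C4 and UGT73B1. On these arrays 3 of the 5 rises lost their call, UGT78D2 (adjusted p = 0.0928), UGT84A3 (0.0917) and UGT88A1 (0.0545). There is 1 array numbered 3 in each group, so these could not be tested separately. Without WT replicate 1, WT replicate 2 or TOC1-ox replicate 1, no UGT gene passed (limma; 11, 11 and 12 at an unadjusted p under 0.05). Of all probe sets, 0.286%, 0.0352% and 0.167% passed in these settings, and 13.2%, 12.0% and 11.3% had an unadjusted p under 0.05. Without WT replicate 3 the calls were 1 higher and 1 lower, and without TOC1-ox replicate 2 they were 1 and 0, beside 0.827% and 0.0879% of all probe sets called in either direction. The root-hair markers EXPA7 and EXPA18 were 0.84 and 0.94 higher in TOC1-ox, without overlap and without passing (adjusted p = 0.129 and 0.266), while PYK10 differed by 0.040. Without TOC1-ox replicate 3, EXPA7 passed, at 0.996 (adjusted p = 0.0386; 0.00693 to 0.36 over all settings), and EXPA18 was at 1.22 (adjusted p = 0.0692; 0.012 to 0.584 over all settings). The summed linear level of these 3 root markers of 13 listed was 17260 to 21280 in WT and 17600 to 20890 in TOC1-ox. That sum is carried by PYK10 and cannot show a change in the expansins. Their part in the UGT differences was not tested.

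Many of the UGT genes neighbour each other in the TAIR10.1 order of protein-coding genes. Taking members at most 3 genes apart, 31 of the 47 fell into 13 clusters, 9 of them pairs. In 4 clusters 1 gene was called and in none were 2. The calls were thus 4 of the 31 genes in clusters, beside 6 of all 47 and 1.78% of all probe sets. So few calls cannot show whether neighbours change together. UGT73C1 differed by 3.55 (95% interval 3.00 to 4.10) while the neighbouring UGT73C2, dim in both groups, differed by -0.066 (-0.23 to 0.10). UGT84A3 differed by 1.70 (1.21 to 2.18), beside 0.52 (-0.54 to 1.57) at UGT84A1 and 0.28 (-0.54 to 1.095) at UGT84A4 on its flanks. In the cluster of UGT71C3, UGT71C4 and UGT71C5, the middle gene differed by -0.73 (-0.98 to -0.49) and its neighbours by 0.80 (-0.08 to 1.69) and 0.16 (-0.26 to 0.57). Clusters that held both a dim gene and one above 4 numbered 6, whereas 3 were dim throughout and 4 were above 4 throughout. Probes of such relatives can share RNA, so a difference may belong in part to a neighbour; this was not tested.

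**Figure D5:**
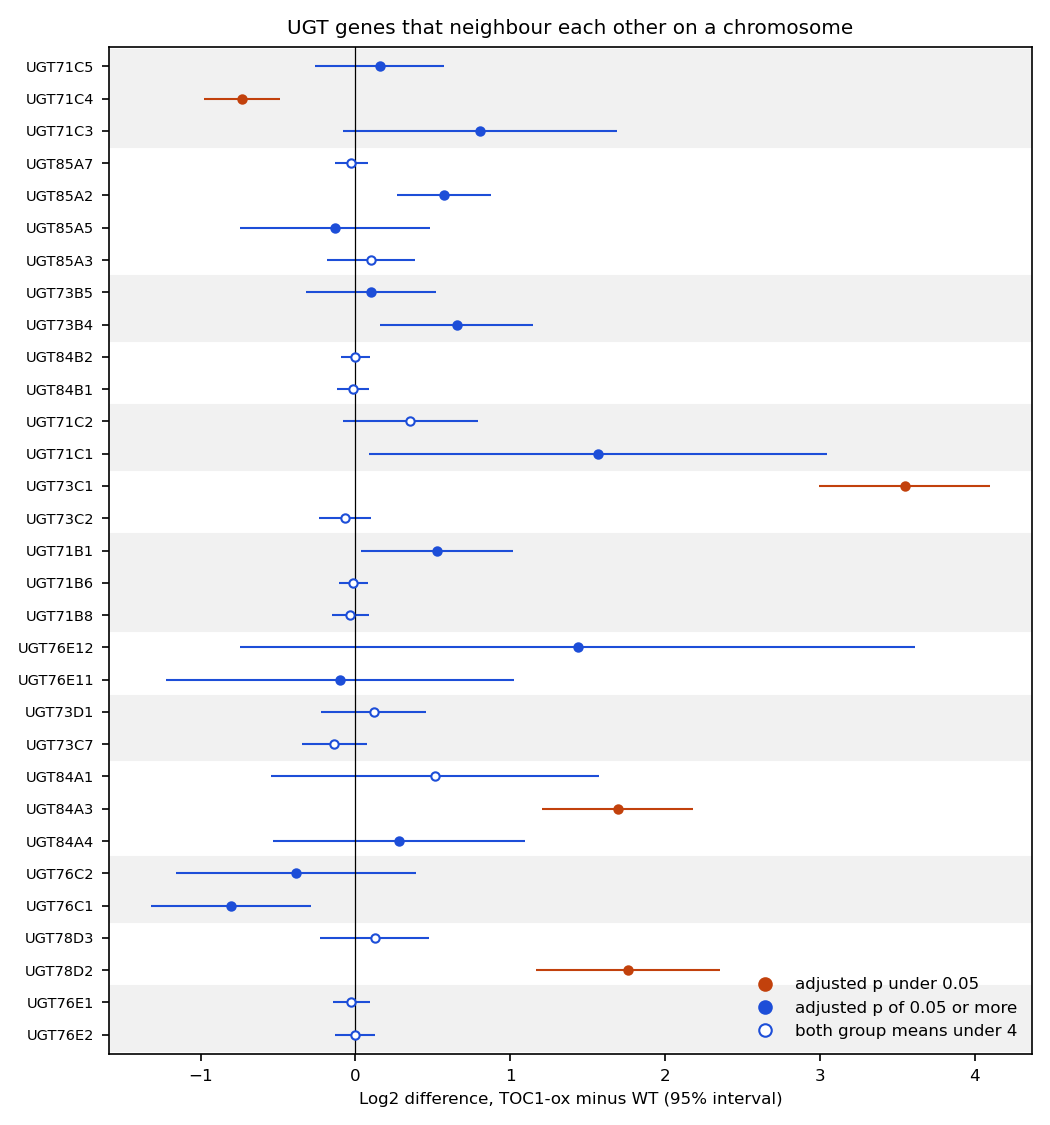
Log2 difference between TOC1-ox and WT with its 95% interval from limma for the 31 UGT genes that neighbour another, in chromosomal order; shading separates the 13 clusters, orange marks an adjusted p under 0.05 and open circles mark genes with both group means under 4. Of the 31 genes 4 are orange, beside 6 of all 47, and no cluster holds more than 1 of them.

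The UGT probe sets that list several genes did not pass. The probe set of UGT73B2 and UGT73B3, 2 stress-responsive relatives of UGT73B1, had 11.38, 11.61 and 11.42 in WT and 11.84, 11.99 and 12.17 in TOC1-ox, without overlap (difference 0.53, adjusted p = 0.108). Those that hold UGT71D1 and UGT89B1 differed by -0.31 and -0.19 with overlap. UGT80A2, a sterol glucosyltransferase listed as SGT, differed by -0.035, and UGT79B6, listed by its locus AT5G54010, was dim on all arrays.

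Genes that supply or consume the same sugars could be measured in part. For UDP-sugars, 1 of 27 listed genes had a probe set of its own. USP, the pyrophosphorylase that makes UDP-sugars from sugar phosphates, rose from 8.56, 8.40 and 8.57 in WT to 8.94, 9.05 and 9.09 in TOC1-ox. The difference was 0.52 ± 0.07 (standard error), with an adjusted p of 0.0476 (limma, 0.00548 to 0.176 over all settings, of which 3 gave a call). Of 22 beta-glucosidases, enzymes that remove glucose again, limma called 0 with all arrays. At an unadjusted p under 0.05 there were 4 (18.2%, beside 16.4% of all probe sets). TOC1-ox lay above WT without overlap in 3 (beside 9.27% of all probe sets) and below it in 1 (beside 10.8%). The median difference of the 22 was -0.017. The largest positive difference was at BGLU28, with 7.76, 7.03 and 8.27 in WT and 13.60, 13.55 and 11.10 in TOC1-ox. It came to 5.06 ± 0.80 (adjusted p = 0.0591) and passed without TOC1-ox replicate 3 (adjusted p = 0.00535; 0.00302 to 0.201 over all settings). The largest negative one was at BGLU19, with 9.34, 9.76 and 7.90 in WT and 6.49, 6.08 and 2.63 in TOC1-ox (difference -3.94, adjusted p = 0.208). It was -2.72 without replicate 3 (adjusted p = 0.0685; 0.0169 to 0.472 over all settings). Without that array 4 of the 22 beta-glucosidases were called higher (beside 7.05% of all probe sets) and 0 lower (beside 5.94%).

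BGLU46, a glucosidase of monolignol glucosides, was singled out after its values were seen, because it acts on products of the UGT72E enzymes. It had 6.19, 5.72 and 5.96 in WT and 7.41, 7.43 and 6.28 in TOC1-ox, with replicate 3 again nearest to WT. Its difference of 1.08 had an adjusted p of 0.241, and of 0.0126 without replicate 3 (0.00996 to 0.549 over all settings). BGLU45, its relative of the same activity, differed by -0.11 with overlap.

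Neither of the remaining lists had a call with all arrays. At an unadjusted p under 0.05 there were 1 of 6 and 4 of 13 genes (limma, 16.7% and 30.8%, beside 16.4% of all probe sets). Of 6 serine carboxypeptidase-like genes, a family that includes acyltransferases using glucose esters, SCPL34 and SCPL49 had the largest differences, -0.79 with overlap and -0.68 without (adjusted p = 0.502 and 0.113), and the median was -0.20. Without TOC1-ox replicate 3, SCPL49 passed at -0.53 (adjusted p = 0.0244; 0.0163 to 0.289 over all settings), beside 5.94% of all probe sets called lower. SCPL27, named after its values were seen, was called higher without that array, at 0.85 (adjusted p = 0.0148; 0.0148 to 0.655 over all settings), beside 7.05%. Of 13 glutathione transferases, the other large family of conjugating enzymes, GSTU18 had 8.74, 8.72 and 8.59 in WT and 4.90, 4.32 and 6.64 in TOC1-ox. Its difference of -3.40 did not pass (adjusted p = 0.0779) but did without TOC1-ox replicate 3 (adjusted p = 0.00338; 0.00338 to 0.257 over all settings). GSTU20 had 10.86, 11.65 and 11.60 in WT and 7.996, 8.05 and 12.13 in TOC1-ox, so that replicate 3 lay above all WT arrays and replicates 1 and 2 far below them (adjusted p = 0.546, and 0.00809 without replicate 3; 0.00809 to 0.913 over all settings). Without replicate 3, 3 of the 13 were called lower (beside 5.94% of all probe sets) and 3 higher (beside 7.05%). Those called higher, named after their values were seen, were GSTU26 at 0.91 (adjusted p = 0.00773), GSTU27 at 2.22 (0.0456) and GSTL3 at 0.39 (0.0465); over all settings these values ran from 0.00773 to 1, 0.0201 to 0.697 and 0.0118 to 0.233. The median difference of the 13 was 0.38 with all arrays.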

How the data were processed

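Per the labels' protocols, total RNA of 6 seedling samples was column-purified, and biotin-labelled cRNA from 1 µg was put on Affymetrix arrays. The authors' deposited table holds log2 values of 22810 probe sets. GCRMA and limma are named, per the submitters' processing notes, with no version given in the sources used here. No scanner files were used. Groups and replicate numbers came from the sample titles. Control probe sets (64) were left out, and 22746 were fitted whatever their level with limma 3.58.1 in R 4.3.3 (lmFit, eBayes, two-sided, group as the only term, 5.02 degrees of freedom). The Benjamini-Hochberg adjustment covered all probe sets, with a call under 0.05. The error of a difference is limma's standard error, and precision is limited by having 3 arrays per group. The fit was tested on simulated data. Figures were drawn with matplotlib 3.10.9.

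Symbols came from the platform annotation, and all 47 members matched the TAIR10.1 table by gene identifier. Members and lists were chosen with earlier results of these data known. Genes were named by rule: every call, the 10 largest differences of either sign, the 6 highest means, and members of 10 lists of roles, of which the brassinosteroid list had no measured gene. Other genes were mostly given by range. Outside the rule, values were given for UGT72B3, and for UGT85A2 and UGT71B1 with their calls without TOC1-ox replicate 3. UGT73C7 falls under the rule but was given by range. Genes of the other lists singled out otherwise are marked. Seed and flower marker lists had no measured gene. Same-numbered arrays of the 2 groups had deviations from their group means correlated at 0.299, -0.0119 and 0.0816. Differently numbered arrays gave -0.186 to 0.109, so the arrays numbered 1 had the highest value. The labels do not state a pairing and the numbers were not taken as pairs, which these values cannot settle. Sequences were not used here. The alternatives tried are given in the closing section.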

Additional observations from a re-analysis of the deposited data

How the results depend on the processing

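Counts of UGT calls moved with the arrays and the variance model. Calls higher in TOC1-ox numbered 5 with all arrays, 16 with array weights (a setting that called 27.2% of all probe sets), 8 on the arrays numbered 1 and 2 only, and 0 to 12 with each array left out. Calls lower numbered 1, then 4 with array weights, 2 on the arrays numbered 1 and 2 only, 0 to 1 with each array left out, and 0 after quantile normalization, with a robust prior, with a term for the arrays numbered 3 and with a 2-fold minimum. Calls higher were 4 to 5 under these last settings. Of all probe sets, quantile normalization, the robust prior and the term for the arrays numbered 3 called 1.09%, 1.15% and 2.50% in either direction. With the replicate block, limma called 0 higher and 0 lower (15 genes at an unadjusted p under 0.05), and 0 of all probe sets (4317 unadjusted); the block leaves fewer degrees of freedom, and the labels do not state a pairing. The other settings (centring, filters, variance trend, mean of probe sets, probe sets of several genes) gave 5 to 7 higher and 1 lower. The filters at means of 4 and 6 kept 28 and 25 UGT genes, and called 5.87% and 5.43% of the probe sets kept. Centring and the variance trend called 2.62% and 2.48% of all probe sets. The median difference of 0.16 was 0.50 and 0.47 among genes with a mean of at least 4 and 6, and 0.55 among those with 4 in either group, a filter that 3 genes met only where they were high. It was 0.47 among those with 4 in WT, a filter chosen after seeing the data. UGT73C1 is absent from the filter at 6.

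Signs turned only in genes without a call. UGT84B2 was at -0.031 with centring, -0.015 with array weights, -0.016 on the arrays numbered 1 and 2 only, and -0.014 to 0.0079 with an array left out. With array weights and with arrays 1 and 2 only, UGT78D3 was at -0.030 and -0.052, UGT85A5 at 0.18 and 0.17, and UGT80B1 at -0.046 and -0.0071. With each array left out in turn, the differences ran from -0.020 to 0.20 in UGT78D3, -0.26 to 0.11 in UGT85A5, -0.094 to 0.20 in UGT80B1, -0.038 to 0.0022 in UGT84B1, -0.068 to 0.19 in UGT73B5 and -0.57 to 0.23 in UGT76E11. The cause was not tested.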
